A study of Mus musculus with 6 samples.

Results

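Interneurons of the Adarb2 lineage were described in the hippocampus of old mice that had breathed 2% sevoflurane, an inhaled general anaesthetic, for 6 h, and of mice kept in air. The tissue was taken 24 h after the exposure, and each group had 3 droplet single-cell RNA libraries, named Sevoflurane 1 to 3 and Control 1 to 3. A cell barcode was a member if it held at least 3000 unique molecular identifiers (UMIs, each a counted RNA molecule) and at most 20% mitochondrial UMIs. It also held at least 3 UMIs of Gad1 and Gad2 together, the enzymes that make GABA, at most 1 of Slc17a7, the vesicular glutamate transporter of excitatory neurons, and at most 3 of the transcription factor gene Zfhx3. The last conditions were at least 3 UMIs of Adarb2 and a sum of Adarb2, Vip and Npas1, per 10000 UMIs, at least 2 times that of Lhx6, Nxph1, Sox6 and Sst. These limits selected 837 of 50466 deposited barcodes, or of the 36436 with enough UMIs: 176, 140 and 163 in the Sevoflurane libraries and 111, 131 and 116 in the Control libraries. The levels of the genes in these limits are therefore given as values, with no test. Strain and exact age are not stated in the sources used here.

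Most inhibitory interneurons of the hippocampus arise in embryonic swellings called ganglionic eminences. Those of the caudal eminence keep expressing Adarb2, an RNA-binding protein, and include Vip cells, which mainly contact other interneurons, neurogliaform cells marked by Lamp5 or Ndnf, and Cck basket cells, whose terminals carry the cannabinoid receptor Cnr1. Those of the medial eminence express Lhx6 and include Pvalb and Sst cells. They served here as the neighbouring class, chosen by the mirror image of the rule, with 1502 barcodes.

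The libraries held 54426522 to 70741809 UMIs and 7068 to 9795 barcodes. No pair of libraries shared more than 0.333% of its barcodes. Sevoflurane 1 differed from the others in sex-linked genes: Xist, transcribed from the silenced X chromosome of females, stood at 1407 CPM in its members (UMI counts scaled to the total of the summed cells, as usual) and at most at 0.836 CPM in those of any other library. The Y chromosome gene Eif2s3y stood at 0 CPM in Sevoflurane 1 and at 108.9 to 148.7 CPM elsewhere. The labels number the libraries but do not tie each to a separate animal, so the spread behind every p-value is that between libraries and may be partly technical. Cells were never counted as replicates.

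The label fitted 680 of the 837 members. The other 157 passed every limit but held little of the genes that define GABAergic interneurons beyond Gad1 and Gad2. Members were split at 5 UMIs per 10000 summed over 9 such genes, among them Erbb4, a receptor of interneurons, Slc32a1, the vesicular GABA transporter, the homeobox genes Dlx1, Dlx2, Dlx5 and Dlx6, and the noncoding Dlx6os1 and Dlx1as. This limit was chosen after the values had been seen, and few members lay near it. The sum was 0 in 91 members, above 0 but under 5 in 66, from 5 to 10 in 12, and 10 or more in 668. The 680 are called Dlx/Erbb4-positive and the 157 Dlx/Erbb4-negative below.

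Adarb2 itself was present at different levels on either side of the split, with a median of 111 UMIs per 10000 in the positive members and 14.7 in the negative members. Depth was similar, with median UMIs of 8982.5 and 8418 per cell. Erbb4 is among the genes summed for the split, so its levels on either side largely follow from the limit. Its median over libraries was 6055 CPM in positive members and 31.8 CPM in negative members. It was 8796 CPM in the barcodes of the Lhx6 lineage that met the same limit. The genes that led the negative members over the positive ones were Glis3, Slit3, Tanc1, Maml2 and Iqgap2, with log2 ratios of 3.99, 3.72, 3.71, 3.66 and 3.36, and Zbtb20 stood at 3.12. Over 8037 genes summed over all libraries, the log profile of the negative members had a Pearson r of 0.979 with that of 1622 barcodes holding at least 3 UMIs each of Slc17a7 and of Prox1, a homeobox gene of both dentate granule cells and caudal interneurons. It had an r of 0.750 with the positive members, which in turn had an r of 0.930 with the Lhx6 lineage. These correlations are descriptions, since all profiles share libraries and genes. Negative members of Control 1 held more interneuron RNA, with 795 CPM of Grik1 and 803 CPM of Npas3. Those of the other libraries had at most 17.1 and 106 CPM. The summed level of 10 excitatory marker genes was 2320, 2540 and 2422 CPM in the negative members of Sevoflurane 1 to 3, and 1964, 1901 and 2615 CPM in those of Control 1 to 3. In positive members the same sum was 824, 872 and 971 CPM in Sevoflurane and 752, 642 and 742 CPM in Control, and its part in the results on genes below was not tested.

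**Figure D1:**
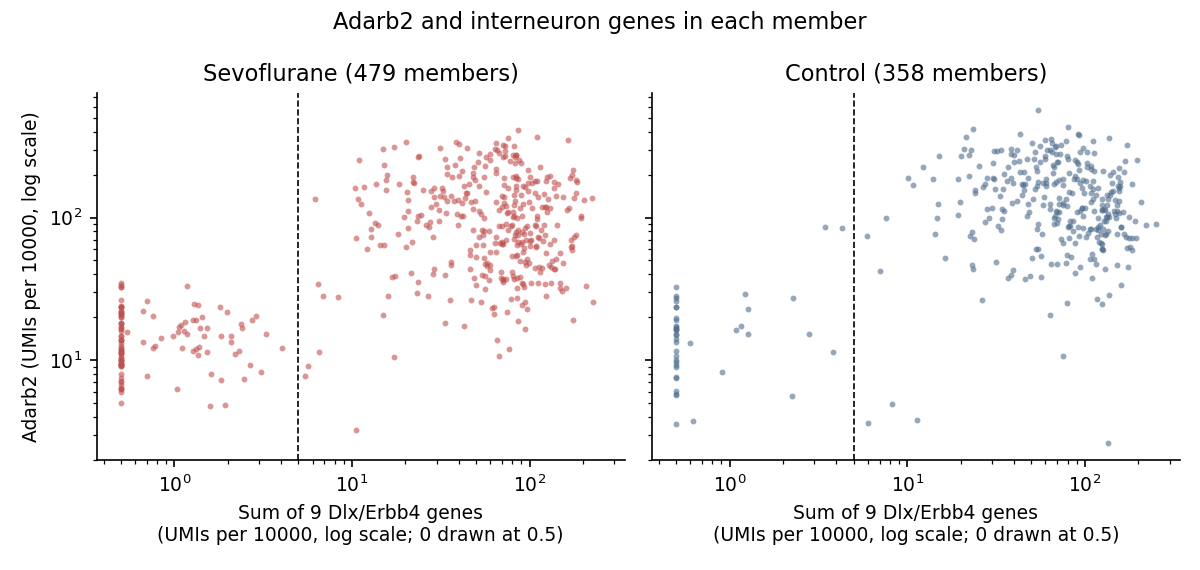
Each point is a member, with its Adarb2 level against its summed Dlx/Erbb4 level, both in UMIs per 10000 on log axes, and the dashed line is the limit of 5. Most of the 157 negative members lie low on both scales, though some reach higher Adarb2 levels, such as 85.3 and 84.4 in Control 1. Between 5 and 10 lie 12 members.

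By value, members made up a larger share of the sequenced cells after sevoflurane, and nearly all of the excess was in the Dlx/Erbb4-negative members. Of barcodes with at least 3000 UMIs, members were 2.56%, 2.24% and 2.56% in Sevoflurane 1 to 3, with exact Clopper-Pearson 95% intervals of 2.20% to 2.96%, 1.89% to 2.64% and 2.19% to 2.98%. In Control 1 to 3 they were 2.23%, 2.00% and 2.13%, with intervals of 1.84% to 2.68%, 1.68% to 2.37% and 1.76% to 2.55%. The groups did not overlap, but the lowest Sevoflurane share and the highest Control share were nearly equal. The means were 2.46% ± 0.185 in Sevoflurane and 2.12% ± 0.115 in Control (SD, n = 3 each), with an exact two-sided permutation p of 0.1, the smallest that 3 against 3 libraries can give. Intervals cover counting error only.

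The share of Dlx/Erbb4-positive members did not differ detectably. Their share was 1.83%, 1.73% and 2.06% in Sevoflurane and 2.01%, 1.74% and 1.86% in Control, with means of 1.87% ± 0.169 and 1.87% ± 0.134 and an exact permutation p of 1. The difference in edgeR was 0.01 ± 0.106 (log2, SE), which leaves room for a modest change in either direction. The negative members had shares of 0.727%, 0.512% and 0.503% in Sevoflurane and 0.221%, 0.260% and 0.276% in Control, with every Sevoflurane library above every Control library. Their means were 0.581% ± 0.127 in Sevoflurane and 0.252% ± 0.0281 in Control (exact permutation p = 0.1, n = 3 each). Members with the highest doublet scores numbered 18, 13 and 13 in Sevoflurane and 7, 5 and 8 in Control. Of these, 14, 12 and 12 in Sevoflurane and 6, 5 and 8 in Control were Dlx/Erbb4-positive. The share of barcodes marked was set to grow with their number, from 5.66% in Control 1 to 7.84% in Sevoflurane 1. The part of the marked members in the excess was not tested beyond leaving them out. That gave a difference of 0.278 percentage points for all members, against 0.334 with them. The groups then overlapped, with the share in Sevoflurane 2 at 2.22% and that in Control 1 at 2.25% (exact permutation p = 0.2, n = 3 each). They also overlapped under stricter limits for members, at 1.91% in Sevoflurane 2 and 1.95% in Control 1, and as a share of GABAergic barcodes, with means of 32.7% ± 2.02 in Sevoflurane and 29.6% ± 3.56 in Control (exact permutation p = 0.3, n = 3 each). Because shares of a dissociated suspension sum to a whole, a change in 1 class and a change in the rest cannot be told apart.

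**Figure D2:**
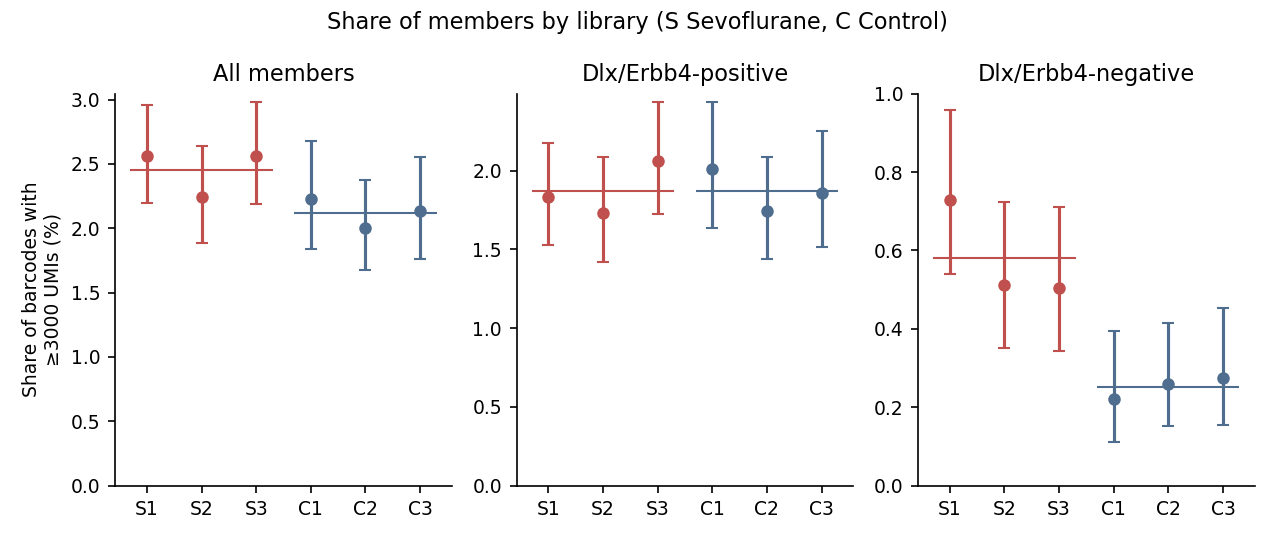
Share of barcodes with at least 3000 UMIs per library, in percent, for all members and for the Dlx/Erbb4-positive and Dlx/Erbb4-negative members, with bars for exact 95% intervals of each library. Sevoflurane points lie above Control points for the negative members, while those of the positive members overlap.

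Within the positive members, known subtypes could be read from single genes. Vip reached at least 3 UMIs in 84 of 680, Lamp5 and Ndnf together reached 3 in 109, and 407 held at least 10 UMIs of Cck or 3 of Cnr1. Vip and Lamp5 or Ndnf never met these limits in the same cell, 0 of 680, which allows a share of up to 0.441% of cells with those UMIs. By contrast 36 Vip cells and 62 Lamp5 or Ndnf cells also met the Cck or Cnr1 limit. The same limits were applied to 1359 Dlx/Erbb4-positive barcodes of the Lhx6 lineage, to show what other interneurons and free RNA give. There 38 (2.80%) met the Lamp5 or Ndnf limit and 51 (3.75%) the Cck or Cnr1 limit. The Vip limit was met by 0, but Vip is a gene of the rule that chose both lineages. That count was thus largely set by the choice and gives no measure of free RNA. Median depth was 8982.5 UMIs in the positive members and 9564.5 in all barcodes of the Lhx6 lineage.

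Other genes separated the subtypes, described here without a test because the same cells defined them. Vip cells were led over the remaining positive members by Mir670hg and Sema5b, a semaphorin, with log2 ratios of 2.45 and 2.38, and by Egfr, the epidermal growth factor receptor, at 2.21. Lamp5 or Ndnf cells were led by Reln, the secreted reelin of neurogliaform cells, at 2.29, and by Sv2c, a synaptic vesicle protein, at 1.92. Cck or Cnr1 cells were led by Frem1 at 3.29, the collagen gene Col25a1 at 2.93 and Cadps2, a priming factor of dense-core vesicles, at 2.29. The 178 members that met none of the limits had a median depth of 6486 UMIs and were led by the transcription factor gene Meis2 at 1.99. Against the Lhx6 lineage, the positive members were led by Adarb2 at 7.18, which follows from the rule that chose both lineages. Next came Cadps2 at 4.22, the axon guidance gene Ntng1 at 3.92, Cnr1 at 3.39 and Syt6 at 2.95.

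Subtype composition was compared by exact permutation, which with 3 libraries a group cannot give a p below 0.1, so no difference could have passed. Vip cells made up 12.3% ± 3.66 of the positive members in Sevoflurane and 12.3% ± 2.06 in Control, and Lamp5 or Ndnf cells 15.9% ± 1.64 and 16.3% ± 2.04 (SD, n = 3 each, exact permutation p = 1 and 0.8). Cck or Cnr1 cells were 59.5%, 54.6% and 51.9% in Sevoflurane and 67.0%, 64.9% and 63.4% in Control, with no overlap (exact permutation p = 0.1, n = 3 each). Positive members were, however, shallower after sevoflurane, with median UMIs of 7612.5, 8550 and 9039 in Sevoflurane and 9678.5, 9510.5 and 9593 in Control. After each cell was thinned to 3000 UMIs, which left out no member, the Cck or Cnr1 share was 23.9% ± 8.84 in Sevoflurane and 29.8% ± 2.47 in Control (exact permutation p = 0.4, n = 3 each), and the ranges overlapped. Members that met none of the limits made up 29.4%, 30.6% and 30.5% in Sevoflurane and 17.0%, 23.7% and 23.8% in Control, without overlap, and after thinning 69.1% ± 8.94 in Sevoflurane and 63.0% ± 2.26 in Control, with overlap. Cells that met both the Vip and the Cck or Cnr1 limit after thinning were 4 of 365 in Sevoflurane, at least 1 in each library, and 0 of 315 in Control, which allows a share of up to 0.952%. Before thinning they were 5.15% ± 2.27 in Sevoflurane and 5.32% ± 2.08 in Control.

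The marker genes that the rule did not use had the following levels in positive members, as plain CPM. Cck, the peptide of the Cck basket cells, was at 145, 181 and 147 CPM in Sevoflurane and 97.0, 99.5 and 107 CPM in Control, so every Sevoflurane library lay above every Control library, although fewer cells passed the Cck or Cnr1 limit there. The transcription factor gene Npas3 was at 3232, 3368 and 3134 CPM in Sevoflurane and 3795, 4330 and 3957 CPM in Control, also without overlap. Reln had 572, 739 and 830 CPM in Sevoflurane and 1047, 786 and 967 CPM in Control, and Cnr1 704, 697 and 574 CPM and 669, 646 and 701 CPM. Those ranges overlapped. In Dlx/Erbb4-positive barcodes of the Lhx6 lineage, mean levels in Sevoflurane and Control were 80.1 and 69.6 CPM of Cck. They were 46.7 and 44.4 CPM of Cnr1, and 281 and 367 CPM of Reln.

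Of 29 subtype markers outside the rule, the CPM of 5 did not overlap between the groups in positive members (Npas3, Penk, Crh, Cck and Trpc6), beside 15.4% of the 9865 genes tested. In all members, thinned shares of cells with a UMI did not overlap for 3 of the 29 (Cnr1, Npas3 and Sv2c), where 18.9% of the 10413 genes tested had levels that did not overlap. No marker passed the exact permutation test after Benjamini-Hochberg adjustment, with smallest adjusted p of 0.58 for CPM in positive members and 0.806 for thinned shares in all members. With 3 libraries a group this test could not have passed. Of the genes in the rule, Adarb2 averaged 12742 ± 779 CPM in Sevoflurane and 16130 ± 1395 CPM in Control, while Vip averaged 75.5 ± 12.6 and 71.1 ± 10.1 CPM.

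**Figure D3:**
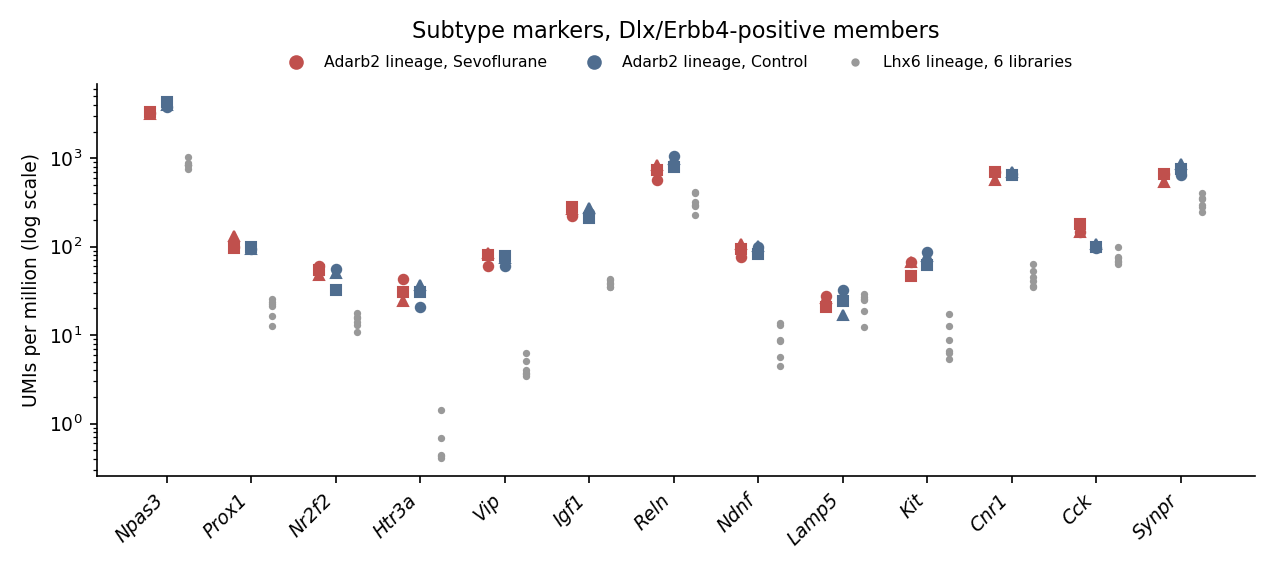
Levels of subtype and lineage markers in the Dlx/Erbb4-positive members and in Dlx/Erbb4-positive barcodes of the Lhx6 lineage, per library, in CPM on a log axis. Cck lies at 145 to 181 CPM in the Sevoflurane libraries, above the 97.0 to 107 CPM of the Control libraries, and Vip levels overlap.

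To find genes that differed after sevoflurane, counts were summed per library over members and compared with edgeR's quasi-likelihood test, with Benjamini-Hochberg (BH) adjustment at 0.05. In all 837 members 220 of 10413 genes passed (2.11%), 55 higher in Sevoflurane (0.528%) and 165 lower (1.58%). In the 680 positive members 52 of 9865 passed (0.527%), 5 higher (0.0507%) and 47 lower (0.476%). Genes used in the limits are left out below, which leaves 51 in the positive members. Of these, 47 had also passed in all members. Most of the rises in all members did not pass in the positive members. There 50 of the 55 were tested, 3 passed, 5 had the opposite sign and the median log2 fold change was 0.45, where the 55 had a median of 0.83 in all members. The 160 falls outside those genes kept their sign in every case, 44 passed, and their median was -0.53 in place of -0.67. Levels from here on are CPM scaled with edgeR's TMM factors.

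Leaving out 1 library moved these counts. In all members 118 genes passed without Sevoflurane 1, 136 without Control 1 and 124 without Control 2. In positive members the count was 2 when Sevoflurane 2 was left out, 14 for Control 3, 30 for Sevoflurane 1, 33 for Sevoflurane 3 and 34 for Control 2. Pde4b and Ttr passed in positive members in each of the 6 cases. Another 7 of the 51 (2810049E08Rik, Hs3st5, Lhfpl3, Lrfn5, Ncam2, Pde3a and Robo2) failed only without Sevoflurane 2, and the remaining 42 failed in at least 2 cases, though every one of the 52 log2 fold changes kept its sign. Of the 38 genes named in all members, 15 passed in each of the 6 cases, and Idi1, Inpp5j and Syt1 in none.

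Enzymes that break down cyclic nucleotides were among the genes that fell. Pde4b, which degrades cyclic AMP, had 261, 328 and 323 CPM in the positive members of Sevoflurane 1 to 3 and 611, 559 and 553 CPM in those of Control 1 to 3. All Sevoflurane values were thus far below all Control values. It fell by 0.92 on the log2 scale (SE 0.117, edgeR BH-adjusted p = 0.00409). Pde3a, a phosphodiesterase inhibited by cyclic GMP, had 289.8, 248 and 242 CPM in Sevoflurane and 449, 554 and 441 CPM in Control, and fell by 0.89 (SE 0.124, edgeR adjusted p = 0.00639). Pde1c, which calmodulin activates, went the other way, with 57.8, 87.7 and 69.8 CPM in Sevoflurane and 34.2, 33.6 and 39.3 CPM in Control, and rose by 1.00 (SE 0.192, edgeR adjusted p = 0.0342). Pde1c did not pass in all members. It was among the 42 genes that failed in more than 1 of the cases with 1 library left out. Of 17 phosphodiesterase genes tested in positive members, a group drawn up after these values were seen, 3 were lower (with Pde1a), 1 was higher and 13 did not pass, with a median of -0.12. Of all 9865 genes tested there, 0.527% passed.

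Receptors and channels followed. Htr7, a serotonin receptor coupled to cyclic AMP synthesis, had 22.6, 30.2 and 33.1 CPM in Sevoflurane and 56.1, 74.5 and 58.0 CPM in Control. The 2 groups lay apart, and Htr7 fell by 1.12 (SE 0.201, edgeR adjusted p = 0.0240). Gria4, an AMPA glutamate receptor subunit, had 1142, 1125 and 1131 CPM in Sevoflurane and 1588, 1806 and 1423 CPM in Control, and fell by 0.50 (SE 0.106, edgeR adjusted p = 0.0465). Kcnc2, a fast potassium channel of interneurons that the naming rule did not select and that was chosen after its values were seen, fell by 0.58 (edgeR adjusted p = 0.0312). In all members, but not in the positive members, the test also passed for the kainate receptor gene Grik1 (-0.71), the nicotinic receptor gene Chrna7 (-0.67) and the GABA-A receptor gene Gabrg3 (-0.53). Their log2 fold changes in positive members were -0.46, -0.57 and -0.35.

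A synaptic adhesion gene and a sulphotransferase gene also fell. Lrrtm3, a postsynaptic partner of neurexins, had 274, 315 and 322 CPM in Sevoflurane and 466, 489 and 458 CPM in Control, and fell by 0.63 (SE 0.109, edgeR adjusted p = 0.0207). Hs3st5, which sulphates heparan chains, had 94.8, 108 and 111 CPM in Sevoflurane and 224, 169 and 211 CPM in Control, and fell by 0.94 (SE 0.134, edgeR adjusted p = 0.00639). For both, the groups were well separated. Other genes fell too: Col14a1, a fibril-associated collagen, fell by 1.52, the syntaxin-binding Stxbp6 by 1.11, Sav1, a scaffold of the Hippo pathway, by 1.22 and the membrane protein gene Plxdc2 by 0.85. In all members the neurexin gene Nrxn3 (-0.46), the contactin-associated Cntnap5c (-0.61), the active-zone gene Pclo (-0.48) and the calcium sensor of release Syt1 (-0.37) passed as well, and their log2 fold changes in positive members, -0.26, -0.39, -0.34 and -0.29, did not pass.

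Few genes rose in the positive members. Glis1, a zinc finger transcription factor gene, had 29.8, 30.2 and 36.7 CPM in Sevoflurane and 11.4, 11.8 and 12.8 CPM in Control, with tight groups on either side, and rose by 1.43 (SE 0.252, edgeR adjusted p = 0.0233). The noncoding 2810049E08Rik had 93.9, 94.3 and 80.4 CPM in Sevoflurane and 46.6, 32.7 and 33.4 CPM in Control, and rose by 1.25 (SE 0.175, edgeR adjusted p = 0.00639). Noncoding Gm46102 rose by 0.78, and Gm45904, annotated as antisense, rose by 1.49. Gm10754, 9630014M24Rik and the antisense Gm1992, also noncoding, fell by 1.28, 0.95 and 0.95. Whether the counting used strand is not stated in the sources used here, so reads of Gm45904 and Gm1992 cannot be told apart from those of the genes opposite.

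Ttr, which encodes transthyretin and is made in bulk by choroid plexus, had by far the largest change among the named genes, at 3.6, 2.8 and 2.1 CPM in the positive members of Sevoflurane and 112, 49.1 and 284 CPM in those of Control. It fell by 5.67 (SE 0.684, edgeR adjusted p = 0.00406), and in Dlx/Erbb4-positive barcodes of the Lhx6 lineage by 6.67. The summed level of 6 choroid plexus markers, of which Ttr is one, was 78.6, 55.3 and 73.7 CPM in the positive members of Sevoflurane and 207, 135 and 372 CPM in those of Control, with no marker at 0. Much of the Control sum was Ttr itself, and the other 5 markers summed to 74.9, 52.4 and 71.6 CPM in Sevoflurane and 99.7, 89.4 and 105 CPM in Control, without overlap. Of 7 oligodendrocyte markers tested in positive members 5 had a log2 fold change below 0, 4 of them with an unadjusted p under 0.05, 0 passed in edgeR and the median was -0.87. Among all genes tested there, 10.2% had an unadjusted edgeR p under 0.05, and the median was 0.01. The sum of all 8 oligodendrocyte markers listed was 367, 257 and 246 CPM in Sevoflurane and 596, 237 and 240 CPM in Control, so that the groups overlapped, and none was at 0. The part of either cell type in other results was not tested.

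**Figure D4:**
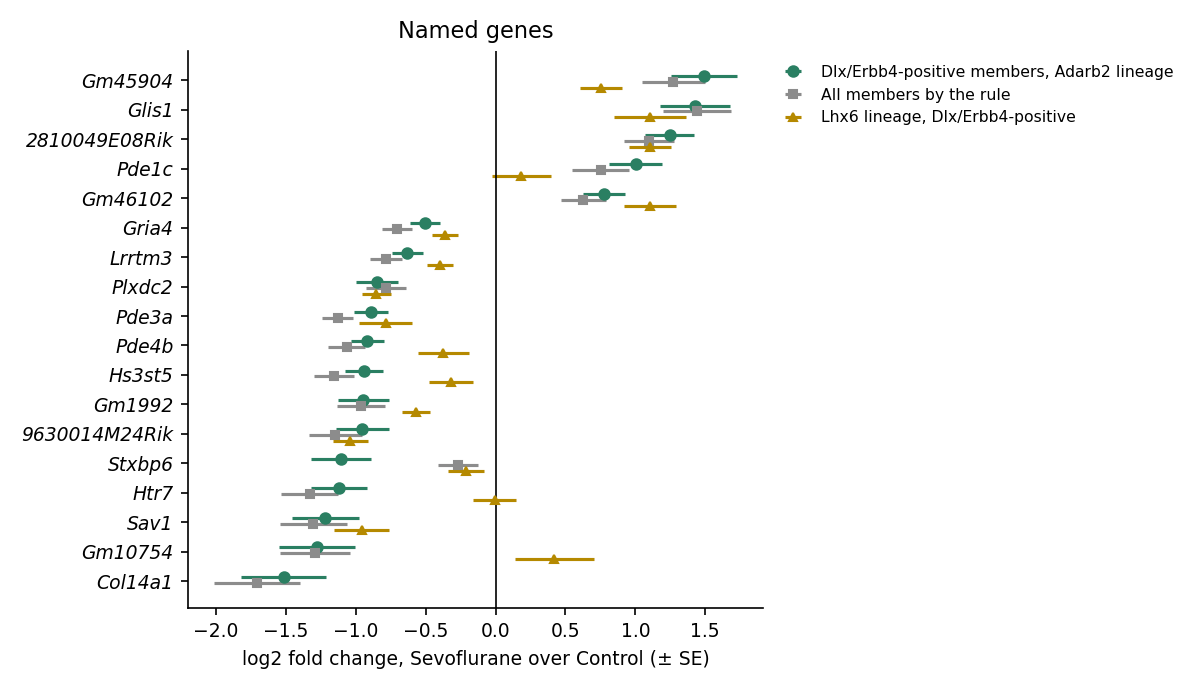
Log2 fold change, sevoflurane over control, with SE, of the named genes in the Dlx/Erbb4-positive members, in all members and in Dlx/Erbb4-positive barcodes of the Lhx6 lineage. Ttr, at -5.67 in positive members, is left out for scale. Col14a1 has no value in the Lhx6 barcodes because it was not tested there.

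**Figure D5:**
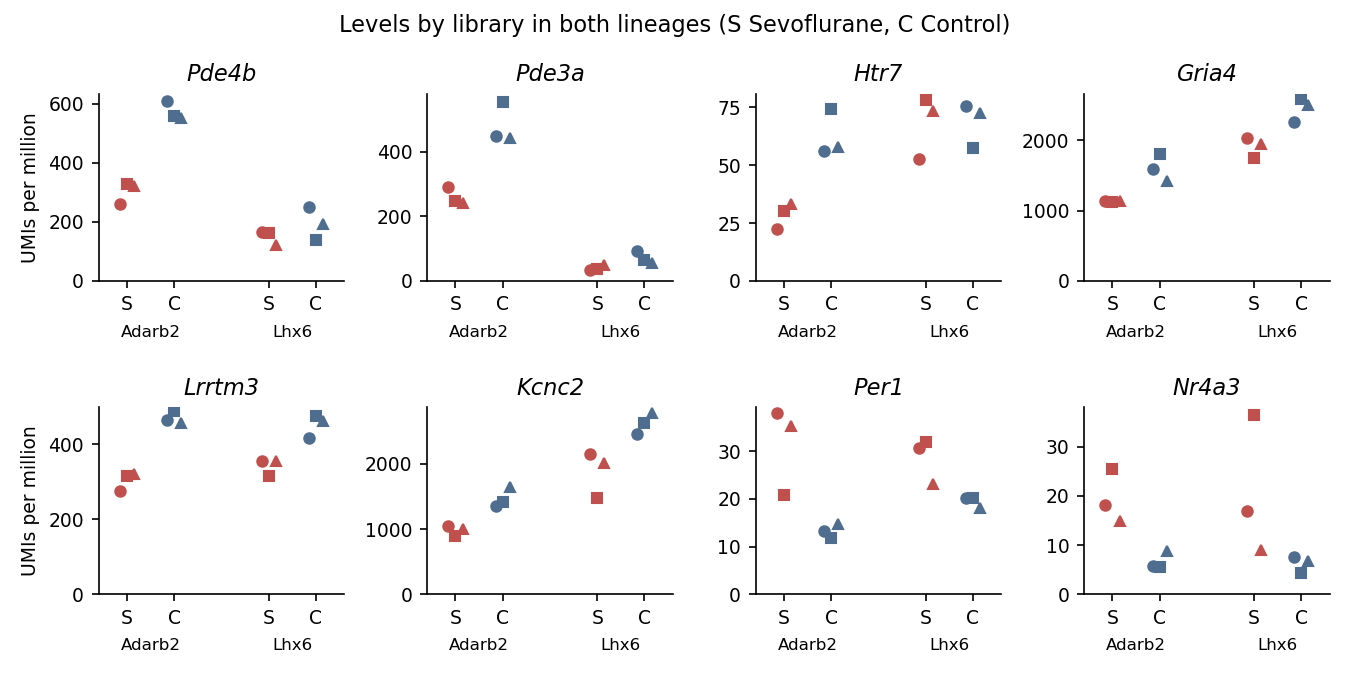
Levels of single genes in the Dlx/Erbb4-positive members (Adarb2) and in Dlx/Erbb4-positive cells of the Lhx6 lineage (Lhx6), in CPM with TMM factors, with a point per library. For Pde4b in the Adarb2 lineage the Sevoflurane libraries lie at 261 to 328 CPM and the Control libraries at 553 to 611 CPM.

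Long genes dominated the falls. The median genomic span was 275 kb among genes lower in the positive members and 34.5 kb among all genes tested there, and 39 of the lower genes were longer than 100 kb, as were 20.6% of all genes tested. The 5 higher genes were long too, with a median of 200 kb. In all members the median was 76.2 kb for higher genes, 282 kb for lower genes and 33.4 kb for all genes tested. Across genes, span and log2 fold change had a rank correlation of -0.265 in positive members, given as a description because genes are not independent. When a smooth trend with span was removed from each library, 12 of the 52 genes still passed, 5 higher and 7 lower. Pde4b, Pde3a, Pde1c, Htr7, Hs3st5, Glis1 and Ttr were among them, and Gria4 and Lrrtm3 were not. In all members the same step left 167 genes, 66 higher and 101 lower.

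Nr4a3 had the largest rise of the immediate-early list in all members, and Per1 that of the glucocorticoid list. Nr4a3, an orphan nuclear receptor gene induced by neuronal activity and cyclic AMP, had 53.7, 41.8 and 14.5 CPM in the members of Sevoflurane 1 to 3 and 6.8, 8.8 and 8.8 CPM in those of Control 1 to 3. It rose by 2.13 (SE 0.428, edgeR adjusted p = 0.0134), a call that was lost without Sevoflurane 1, Control 1 or Control 2. Per1, a clock gene that glucocorticoids and cyclic AMP induce, had 39.8, 25.8 and 31.3 CPM in Sevoflurane and 15.4, 11.9 and 14.1 CPM in Control, and rose by 1.23 (SE 0.247, edgeR adjusted p = 0.0131), a call lost without Sevoflurane 1 or Control 2. In the positive members the groups still did not overlap for either gene. Their levels there were 18.1, 25.5 and 14.8 CPM of Nr4a3 in Sevoflurane and 5.7, 5.5 and 8.8 CPM in Control, and 37.9, 20.7 and 35.2 CPM of Per1 in Sevoflurane and 13.3, 11.8 and 14.7 CPM in Control. The log2 fold changes of 1.51 and 1.24 did not pass there (edgeR adjusted p = 0.0750 and 0.0674).

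The promoters of these genes are shown because both are classic targets of factors that bind the cyclic AMP response element, whose core is TGACG. Each runs from 250 bases before to 50 bases after a RefSeq start site, on the plus strand of GRCm38.p6, and matches of TGACG on either strand (CGTCA on the printed one) are in capitals. They lie at chr4:48045055-48045354 for Nr4a3 and, for the 2 start sites of Per1, at chr11:69098699-69098998 and chr11:69099902-69100201.
Nr4a3: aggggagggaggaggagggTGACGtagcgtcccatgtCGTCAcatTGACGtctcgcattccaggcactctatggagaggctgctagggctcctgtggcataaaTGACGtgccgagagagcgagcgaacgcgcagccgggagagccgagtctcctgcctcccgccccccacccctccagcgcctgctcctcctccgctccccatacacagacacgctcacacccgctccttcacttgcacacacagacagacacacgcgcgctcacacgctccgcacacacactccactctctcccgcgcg
Per1, first start: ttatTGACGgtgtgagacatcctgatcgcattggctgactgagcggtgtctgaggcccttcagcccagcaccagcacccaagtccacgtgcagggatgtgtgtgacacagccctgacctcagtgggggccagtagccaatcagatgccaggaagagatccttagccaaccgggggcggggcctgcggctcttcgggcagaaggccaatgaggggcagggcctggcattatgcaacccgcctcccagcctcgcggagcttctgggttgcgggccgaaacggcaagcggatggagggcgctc
Per1, second start: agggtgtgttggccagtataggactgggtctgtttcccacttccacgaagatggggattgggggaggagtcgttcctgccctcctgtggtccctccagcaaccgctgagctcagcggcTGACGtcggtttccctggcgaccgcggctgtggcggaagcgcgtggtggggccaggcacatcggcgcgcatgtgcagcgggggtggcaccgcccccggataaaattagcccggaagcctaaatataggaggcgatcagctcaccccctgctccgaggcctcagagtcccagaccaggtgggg
Nr4a3 held 4 matches and each Per1 promoter 1. Of 32851 promoters of the same length, 20.8% held at least 1 match and 0.231% at least 4, and of 31 promoters of 19 immediate-early genes 18 held one. A match is a run of letters and says nothing of binding here.

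The fixed lists showed small shifts around these genes. Of 23 immediate-early genes, 10 could be tested in the positive members and all 10 had a log2 fold change above 0, but 0 passed in edgeR, 5 had an unadjusted p under 0.05, as did 10.2% of all genes tested there, and the median was 0.70 beside 0.01 for all genes tested. Junb, a partner in the AP-1 factor, was at 19.9, 21.7 and 11.98 CPM in Sevoflurane and 5.7, 7.3 and 13.8 CPM in Control, so that Sevoflurane 3 lay below Control 3. In all members 13 were tested, with a median of 0.91 beside 0.01, and Nr4a3 passed. Of 10 glucocorticoid-responsive genes tested in positive members, 7 had a log2 fold change above 0, 0 passed, and the median was 0.52. Per1 and the transcription factor gene Klf9 (0.65) passed in all members.

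Cholesterol synthesis genes had 13 of 15 log2 fold changes above 0 in positive members, with a median of 0.55, 0 that passed in edgeR and 6 with an unadjusted p under 0.05. All genes tested there had a median of 0.01, and 10.2% of them had an unadjusted edgeR p under 0.05. The isomerase gene Idi1 had 9.9, 11.3 and 19.0 CPM in Sevoflurane and 2.9, 2.7 and 5.9 CPM in Control in positive members, and it passed in all members (1.77, edgeR adjusted p = 0.0416). The sterol demethylase gene Cyp51 had 49.6, 42.4 and 46.5 CPM in Sevoflurane and 22.8, 29.997 and 24.6 CPM in Control, without overlap, and did not pass in positive members (0.84, edgeR adjusted p = 0.0752). Cytosolic ribosomal protein genes had 74 of 79 values above 0 with a median of 0.32, and nuclear respiratory chain genes 68 of 77 with a median of 0.22. None of either list passed in positive members, where 11 ribosomal genes had an unadjusted p under 0.05 and a log2 fold change above 0 and 1 had one below, and 5 respiratory genes had one above. These counts, too, stand beside the share of 10.2% over all genes tested. Rpl21 passed in all members (0.84), and counts of ribosomal protein genes may be split with their processed copies.

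Few genes in the lists of neurotransmission passed. Of 19 glutamate receptor genes tested in positive members, Gria4 fell, 15 had a value below 0 and 7 had an unadjusted p under 0.05 with a value below 0, and the median was -0.25. Among all genes tested there, 10.2% had an unadjusted edgeR p under 0.05 in either direction, and the median was 0.01. The metabotropic receptor gene Grm5, at 1148, 1023 and 1079 CPM in Sevoflurane and 1457, 1407 and 1374 CPM in Control, had no overlap but did not pass (-0.38, edgeR adjusted p = 0.113). Of 19 synaptic adhesion genes Lrrtm3 fell, and the median was -0.20. GABA-A receptor genes, through which sevoflurane is known to act, had a median of -0.08 over 11 tested, and genes of GABA packaging, uptake and breakdown 0.11 over 6. None of those 17 passed in edgeR, and 2 of each list had an unadjusted p under 0.05, beside 10.2% of all genes tested. Receptors of serotonin, acetylcholine, cannabinoids and peptides, a list that does not hold Htr7, had a median of -0.14 over 11 genes, neuropeptides 0.18 over 4, potassium leak and pacemaker channels -0.07 over 8 and presynaptic release genes 0.01 over 20.

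The unfolded protein response had a median of -0.10 over 18 genes, cytosolic heat shock 0.13 over 11, the circadian clock 0.20 over 16 and mitochondrially encoded genes 0.16 over 13. Of the 8 lists from serotonin and related receptors to mitochondrially encoded genes, 0 genes passed in edgeR in positive members, and 14 of 101 had an unadjusted p under 0.05, beside 10.2% of all genes tested.

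A further set rose in all members and did not pass in the positive members. Kif17, a motor for dendritic cargo, rose by 1.20, Kcnip2, a potassium channel subunit, by 0.93, Car12, a carbonic anhydrase, by 1.41, Fggy by 1.57, Cystm1 by 0.94, Inpp5j by 0.98 and the noncoding 6530403H02Rik by 1.21. In the positive members Kcnip2 stood at 0.31 (edgeR adjusted p = 0.792), with 17.2, 30.2 and 24.7 CPM in Sevoflurane and 18.1, 14.5 and 25.5 CPM in Control. Of the 30 genes that led the negative members most, 9 passed as higher in all members (Maml2, Iqgap2 and Zbtb20 among them), and in the positive members 1 passed, Stxbp6, which was lower. Their median log2 fold change was 0.48 in all members and -0.09 in the positive members. Among falls in all members that did not pass in positive members were Rnf121 (-1.23), Sytl5 (-1.15), Tmem132c (-1.09) and 4930467D21Rik (-1.22).

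Most genes that changed in the positive members had the same sign in Dlx/Erbb4-positive barcodes of the Lhx6 lineage. This held for 48 of the 50 tested there, and 12 of the 50 passed there too. The shares of all genes that did so are not given here, so these counts have no background beside them. The libraries are shared, so the 2 sets of values are not independent. Whether the response itself differed was tested as an interaction of lineage and group in edgeR, with the library as a block, and a positive value means a larger log2 fold change in the Adarb2 lineage. In all members 29 of 12302 genes passed (0.236%), 12 higher (0.0975%) and 17 lower (0.138%). Restricted to Dlx/Erbb4-positive cells of both lineages, 3 of 11877 passed (0.0253%), 1 higher (0.00842%) and 2 lower (0.0168%). DESeq2 gave 0 for all members, with 229 genes at an unadjusted p under 0.05, and in the positive cells it called 1, Gm32647. The edgeR count for all members was 9 when Sevoflurane 1 was left out, 19 for Sevoflurane 3, 15 for Control 1 and 14 for Control 2.

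The 3 genes were 2 noncoding RNAs and a cadherin. Gm32647 had 50.6, 45.3 and 120.5 CPM in the positive members of Sevoflurane and 22.8, 33.6 and 44.2 CPM in those of Control, but 111, 158 and 215 CPM in the Lhx6 lineage of Sevoflurane and 231, 215 and 263 CPM in that of Control. Its log2 fold change was 1.14 in the Adarb2 lineage and -0.54 in the Lhx6 lineage, and neither passed by itself (edgeR adjusted p = 0.179 and 0.211). Their difference of 1.62 (SE 0.229, edgeR adjusted p = 0.00368) passed without each library in turn. Fat3, an atypical cadherin, had 172, 230.1 and 235 CPM in Sevoflurane and 293, 301 and 336 CPM in Control in positive members, against 209, 213 and 175 CPM in Sevoflurane and 144, 160.3 and 159.7 CPM in Control in the Lhx6 lineage. Its difference was -0.93 (SE 0.152, edgeR adjusted p = 0.0192). D030068K23Rik differed by -2.60 (SE 0.438, edgeR adjusted p = 0.0192), on at most 19.3 CPM in the Lhx6 lineage. The call of Fat3 was lost without Sevoflurane 1, Control 1 or Control 3, and that of D030068K23Rik without Sevoflurane 1 or any 1 Control library. The number of genes that passed was 1 when Sevoflurane 1 was left out, 14 for Sevoflurane 2 and 7 each for Sevoflurane 3 and Control 2.

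Htr7 also fell more in the Adarb2 lineage than in the Lhx6 lineage when all members were used. Members had 16.4, 25.1 and 26.3 CPM in Sevoflurane and 53.0, 65.2 and 52.0 CPM in Control. Dlx/Erbb4-positive barcodes of the Lhx6 lineage had 52.8, 78.2 and 73.4 CPM in Sevoflurane and 75.5, 57.4 and 72.5 CPM in Control, with the groups mixed. The test used all barcodes of that lineage, whose levels are not given here. The difference was -1.31 (SE 0.202, edgeR adjusted p = 0.0131) and passed without each library in turn. In positive members it was -1.15 and did not pass (edgeR adjusted p = 0.0757).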

How the data were processed

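The authors deposited whole-number UMI counts for each gene and barcode of 6 libraries, and the file headers give Cell Ranger 6.1.1 as the software. Per the labels' protocols, tissue was digested with collagenase at 37 °C and the suspension frozen, before droplet libraries were made from the 3′ ends of transcripts (10x Genomics, v3.1). The submitters' processing notes also list CASAVA 1.8 and Seurat, without saying what for. Build, annotation and strand setting are not given in the sources used here. Library depth was 54426522 to 70741809 UMIs over 31253 genes.

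Members and gene lists were chosen with earlier results of these data known. Counts of members were summed per library and tested with edgeR 4.0.16 in R 4.3.3 (quasi-likelihood, TMM, filterByExpr, BH threshold 0.05), with SE derived from the fold change and its F statistic. DESeq2 1.42.0 was an alternative. Log2 fold changes are sevoflurane over control. Named genes were the 12 largest rises and 12 largest falls among genes that passed at 20 CPM or more, plus list members that passed, and for the interaction the 6 largest in each direction. Genes of the rule or of the Dlx/Erbb4 limit were not named as results, and 1 gene of that limit and 1 list member that passed are not reported here. Leading genes were ranked by the log2 ratio of CPM with 20 CPM added. Shares were tested by exact permutation. Spans came from GENCODE M21 on GRCm38, which matched 99.8% of gene names. Doublet scores came from Scrublet in scanpy 1.11.5, with the highest 0.8% per 1000 barcodes marked. The counts were not corrected for free RNA. The edgeR fits were tested on simulated data, for the groups in both sets of members and for the interaction in all members.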

Additional observations from a re-analysis of the deposited data

Results flagged for a closer look

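Each result here is a difference in the response to sevoflurane between the Adarb2 and the Lhx6 lineage that passed the interaction test of edgeR (BH-adjusted p under 0.05), as the log2 fold change in the Adarb2 lineage minus that in the Lhx6 lineage. DESeq2 called none of those found with all members, and of those in Dlx/Erbb4-positive cells it called Gm32647. With all members, the difference was positive for Chst9 (1.55), Gm32647 (1.38), Iqgap2 (1.05), Tmtc1 (0.93), Cacna2d1 (0.91) and Ak5 (0.83). Negative differences were found for Gm10754 (-1.99), Insyn2b (-1.95), Htr7 (-1.31), Socs2 (-1.07), Tcerg1l (-1.02) and Lhfpl3 (-0.95). Htr7 and Iqgap2 passed without each library in turn. Of those 6 cases, Gm32647 and Lhfpl3 passed in 5, Ak5 in 4, and Tmtc1 and Gm10754 in 3. Chst9, Cacna2d1, Insyn2b and Tcerg1l passed in 2, and Socs2 in 1. Between the groups, the Lhx6 lineage was tested only in its Dlx/Erbb4-positive barcodes, while the interaction test with all members used all its barcodes. Chst9, Cacna2d1 and Tcerg1l passed in edgeR only in those positive Lhx6 barcodes, where they changed by -1.60, -1.11 and 0.75. In all members of the Adarb2 lineage they changed by 0.02, -0.16 and -0.32. Iqgap2, Gm10754, Htr7, Socs2 and Lhfpl3 passed in all members and not in the positive Lhx6 barcodes. The rest passed in neither, and Insyn2b was not tested between the groups in the positive Lhx6 barcodes.

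Chst9 and Iqgap2, a scaffold protein gene, were among the leading genes of the Dlx/Erbb4-negative members. In Dlx/Erbb4-positive cells the difference of Chst9 was 1.59 and did not pass (edgeR adjusted p = 0.348), and that of Iqgap2 was -0.17. The level of Iqgap2 in all members was 214, 156 and 196 CPM in Sevoflurane and 105, 111 and 143 CPM in Control. In the positive members it was 31.6, 50.9 and 36.7 CPM in Sevoflurane and 64.7, 29.1 and 86.4 CPM in Control. In Dlx/Erbb4-positive cells of both lineages the differences were 1.62 for Gm32647, -2.60 for D030068K23Rik and -0.93 for Fat3.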

How the results depend on the processing

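The count of 220 genes in all members was 460 with no filter on low counts, 127 with members thinned to 3000 UMIs and 52 in Dlx/Erbb4-positive members. It ran from 118 to 183 without 1 library. DESeq2 gave 194, of which 28 were higher and 166 lower, and removing the span trend gave 66 higher and 101 lower. For the positive members, 52 became 231 with no filter, 21 thinned, 12 without the span trend (5 higher, 7 lower) and 2 to 36 without 1 library. The 29 interaction genes became 0 with DESeq2, 137 with no filter, 50 without doublet-scored barcodes, 8 thinned, 3 in positive members and 9 to 38 without 1 library, and the 3 in positive members 1 with DESeq2 (Gm32647) and 1 to 14 without 1 library. The 16 list members that passed in all members became 31 with no filter, 9 without the span trend, 2 in positive members and 5 to 19 without 1 library. The share difference of 0.334 percentage points ran from 0.274 to 0.440 without 1 library, the groups overlapped with stricter limits, without doublet-scored barcodes or as a share of GABAergic barcodes, and edgeR on cell counts gave a log2 difference of 0.22 (unadjusted p = 0.0437, against an exact permutation p of 0.1). Of the 29 markers, 3 became 7 unthinned and 4 to 8 without 1 library. The cause of these changes was not tested. No named gene reversed: over all alternatives, 192 values kept their side of the threshold and 108 fell short in positive members, and 461 and 138 in all members. The Dlx/Erbb4-positive alternatives were added after seeing the data.

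No pairing by replicate number was seen in all members. Same-numbered deviations had correlations of -0.0991 to -0.0262, and no library correlated best with its own number. With 3 libraries a group, this cannot show that no pairing existed. With the replicate number as a block, 146 genes passed in all members, 28 in positive members and 10 list members. With 3 libraries a group and about 100 positive cells in each, low genes are the least certain.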
